A study of Mus musculus with 8 samples.

Results

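The 10 genes described here encode the co-activators Yap1 and Wwtr1 (also called Taz), their DNA-binding partners Tead1 and Tead3, the inhibitory kinases Lats1 and Lats2, the regulators Nf2, Amotl2 and Ajuba, and Ankrd1, a classical Yap target gene. They were chosen by name as components or targets of the Hippo pathway, and they are 10 of the 18770 genes listed for these libraries. These genes and the gene lists used below were chosen with earlier results of these data known. In the Hippo pathway, a kinase cascade ending in Lats1 and Lats2 phosphorylates Yap1 and Wwtr1 and keeps them out of the nucleus. When the cascade is inactive, Yap1 and Wwtr1 enter the nucleus and bind Tead proteins, which recognise the core motif GGAATG and activate genes of growth, adhesion and the cytoskeleton. In skin, Yap1 is known for its role in the proliferation of basal epidermal cells and in the hair follicle and wound response, and much of its control acts on the protein, which RNA levels do not measure.

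Wildtype mice labelled C57BL/6 were depilated on the back and treated topically with alpinetin (AP, a plant flavonoid at 3 mg/ml in 65% ethanol) or with vehicle control (VC, 65% ethanol alone), 20 µl in each case. The study's methods name the strain C57BL/6J. The labels give an age of 7 to 8 weeks, where those methods give 6 to 7 weeks at depilation. Back skin, labelled as having had the interfollicular epidermis removed, was sampled at D4 after depilation, and mRNA was sequenced from 4 AP and 4 VC samples. The comparison asks how AP changed transcription in skin during hair regrowth. Values are normalized counts, that is reads per gene divided by a size factor for each library, and the libraries are numbered 1 to 4 within each group. Each group is described as separate mice, as many as there are libraries, although no column names its mouse, and p-values measure the spread between these libraries. Libraries of 1 group differed by far more than counting error (chi-square per degree of freedom from 14.7 to 74.2 between pairs).

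The AP and VC libraries stood apart before any single gene was considered. Reads on genes numbered from 6454563 to 7264151 in the VC libraries and from 8507783 to 11190113 in the AP libraries. Mitochondrially encoded genes took 54.3%, 44.9%, 42.1% and 52.3% of the reads (VC.1 to VC.4) against 11.1%, 7.85%, 5.32% and 10.3% (AP.1 to AP.4). The share was high in every VC library and low in every AP library, and the groups did not overlap (exact permutation test, two-sided p = 0.0286, as low as 4 libraries against 4 can give). Without these genes the median depth was 3534619.5 reads for VC and 8974689.5 for AP, so a VC value rested on fewer reads. A floor of 3 reads stood for 4.10 to 5.63 normalized counts in the VC libraries and for 1.49 to 2.18 in the AP libraries, in counting error only. Fold changes were also larger for genes with longer transcripts (Spearman's rho 0.245 over 15962 tested genes, and 0.401 over the 11255 with a mean of at least 50 normalized counts, genes not being independent replicates). The part of depth, mitochondrial share and transcript length in the results was not tested, beyond the values given beside them.

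Differences are log2 fold changes of AP over VC on the log2(value + 1) scale, tested with limma over 15964 genes and adjusted by the Benjamini-Hochberg method, with a call at an adjusted p under 0.05. All 10 genes passed the filter on low values. The test called 1 of the 10 higher in the AP group, Amotl2, where 6.33% of all genes tested were called higher, and none lower, where 4.0% of all genes were. At an unadjusted p under 0.05, 3 were higher and 1 was lower, while edgeR called 1 higher and none lower, and DESeq2 called 2 higher and none lower. Over all genes, 17.04% were higher and 13.3% lower at an unadjusted p under 0.05, edgeR called 6.28% higher and 4.46% lower, and DESeq2 9.46% higher and 7.91% lower of the 17622 it gave an adjusted p. For 2 of the 10 the groups were free of overlap, Lats1 and Amotl2, beside 19.2% of all genes tested, so the share among the 10 was near the background. The median log2 fold change was 0.20 over the 10 genes, with 6 above 0, and 0.06 over all genes tested, with 8537 of 15964 above 0. With the trend on transcript length removed in each library, the median of the 10 genes was -0.11, that of all genes -0.01, and none of the 10 was called in either direction by limma. Scaling by total counts moved the median of all genes to 0.90, and all 10 genes were then above 0, 7 of them called higher, beside 91.9% of all genes above 0 and 54.2% called higher.

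**Figure D1:**
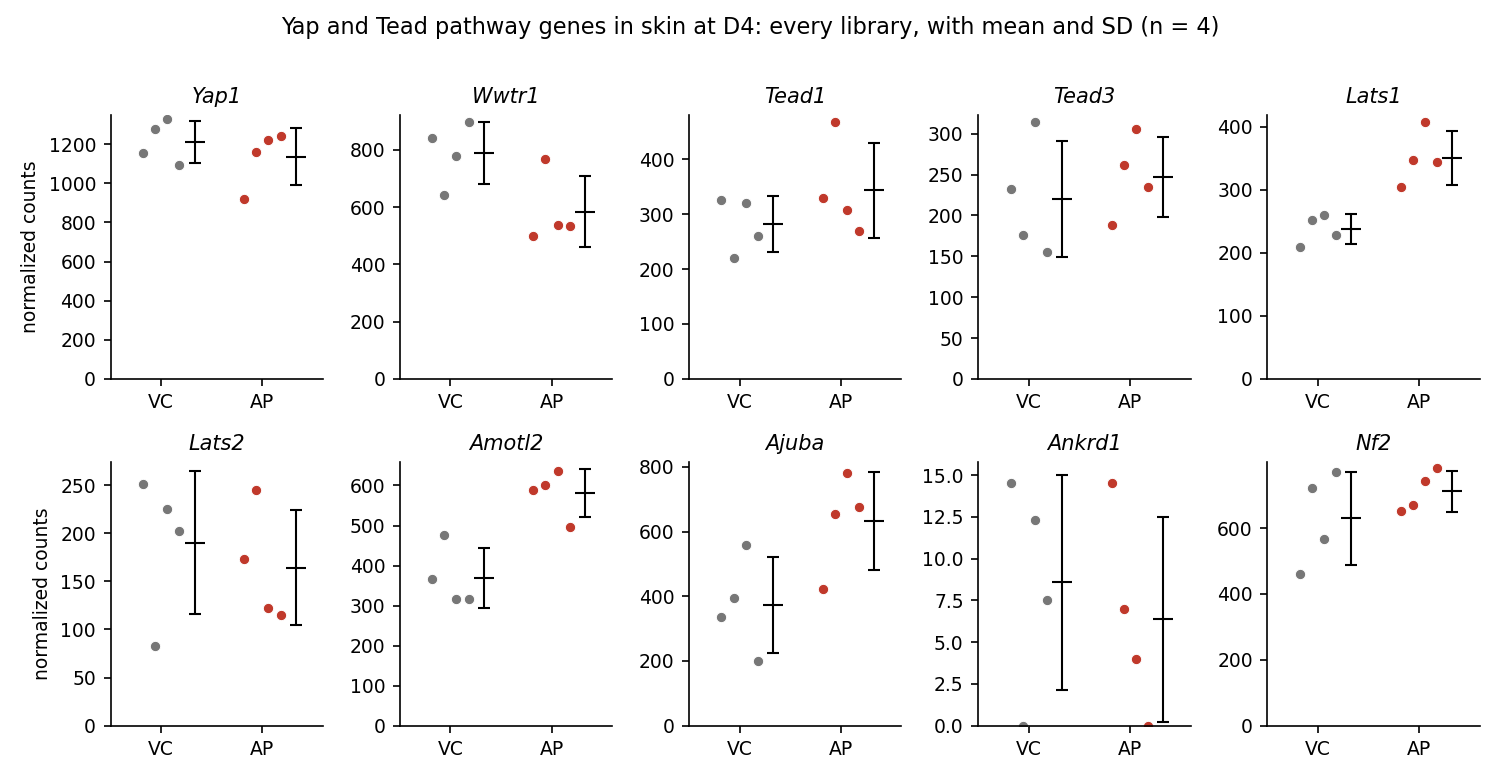
Normalized counts of the 10 genes in each library, 1 panel per gene, with VC libraries in grey and AP libraries in red and the mean with its SD (n = 4) beside them. The groups are apart for Lats1 and Amotl2, while the AP and VC points of Yap1, Tead1, Tead3, Lats2, Ankrd1 and Nf2 lie largely over each other.

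Levels of different genes were compared as normalized counts per kb of longest transcript. In the VC group Yap1 was the highest of the 10, at 230 ± 20.4 per kb (SD, n = 4), followed by Wwtr1 at 168 ± 23.2 per kb, Nf2 at 134 ± 29.9 per kb, Ajuba at 109 ± 43.6 per kb and Amotl2 at 83.3 ± 17.2 per kb. Below them came Tead3 at 63.8 ± 20.6 per kb, Lats2 at 36.7 ± 14.3 per kb, Lats1 at 33 ± 3.25 per kb, Tead1 at 28.3 ± 5.08 per kb and Ankrd1 at 4.25 ± 3.18 per kb. Apart from Yap1 above Wwtr1 and Tead1 above Ankrd1, each neighbour in this order lay within the spread (1 SD on each side) of the next. In the AP group Yap1 stood at 215 ± 27.8 per kb, followed by Ajuba at 186 ± 44.6 per kb, Nf2 at 151 ± 13.2 per kb, Amotl2 at 131 ± 13.5 per kb and Wwtr1 at 124 ± 26.5 per kb. The lower levels were those of Tead3 at 71.9 ± 14.2 per kb, Lats1 at 48.6 ± 5.96 per kb, Tead1 at 34.5 ± 8.67 per kb, Lats2 at 31.6 ± 11.5 per kb and Ankrd1 at 3.16 ± 3.04 per kb. Here the gaps between Wwtr1 and Tead3, between Tead3 and Lats1 and between Lats2 and Ankrd1 exceeded the spread, and the other neighbours did not. Wwtr1 stood next to Yap1 in the VC group and below Ajuba, Nf2 and Amotl2 in the AP group. Its spread in the AP group overlapped that of each of these genes.

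The co-activators came first. Yap1 (ENSMUSG00000053110, chromosome 9 of mm10 from 7931999 to 8004596) had 1153, 1278, 1327 and 1095 normalized counts (VC.1 to VC.4) against 922, 1160, 1221 and 1240 (AP.1 to AP.4). The lowest value was that of AP.1 and the other 7 libraries lay close together, with the groups overlapping. The log2 fold change of Yap1 was -0.10 (SE 0.15, 95% interval from -0.43 to 0.23, limma adjusted p = 0.683). Yap1 was at -0.0041 without AP.1 (limma adjusted p = 0.990) and at -0.35 with the length trend removed (limma adjusted p = 0.129). Its values rested on at least 584 reads in every library, and 116 of its 9257 exonic bases (1.25%) are shared with Gm20416 on the opposite strand. Wwtr1 (ENSMUSG00000027803, chromosome 3 from 57455649 to 57575910), the paralog of Yap1, had 840.4, 643, 777 and 896 normalized counts (VC.1 to VC.4) against 498, 769, 537 and 533 (AP.1 to AP.4). Of the AP libraries, AP.1, AP.3 and AP.4 lay below every VC library, and AP.2 lay inside the VC range, so the groups overlapped. The log2 fold change of Wwtr1 was -0.44 (SE 0.18, 95% interval from -0.83 to -0.06), with an adjusted p of 0.119 from limma and an unadjusted p of 0.0283. Without AP.2 it was -0.58 (adjusted p = 0.0792), and with the length trend removed -0.64 (adjusted p = 0.0508), in a range of adjusted p from 0.0508 to 0.261 over 19 alternatives. With total counts Yap1 and Wwtr1 were at 0.77 and 0.43, both under the median of all genes on that scale. The log2 ratio of Yap1 to Wwtr1 within a library was 0.63 ± 0.31 (VC) against 0.97 ± 0.29 (AP; SD, n = 4 each), a difference of 0.34 with overlapping groups (two-sided exact permutation test, p = 0.143, 0.229 adjusted over 8 ratios and shares).

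Tead1 and Tead3 encode DNA-binding partners of both co-activators. Tead1 (ENSMUSG00000055320, chromosome 7 from 112679318 to 112906807) had 326, 220.2, 321 and 261 normalized counts (VC.1 to VC.4) against 330, 467, 308 and 269 (AP.1 to AP.4). AP.2 was the highest library and the other AP libraries lay among or just above the VC libraries. For Tead1 the log2 fold change was 0.27 (SE 0.21, limma adjusted p = 0.403), and it lay between 0.11 and 0.38 with a library left out. It was -0.23 with the length trend removed, the longest transcript of Tead1, of 9964 nt, being the longest of the 10. Tead3 (ENSMUSG00000002249, chromosome 17 from 28331671 to 28350817) had 233, 176, 314 and 156 normalized counts (VC.1 to VC.4) against 189, 262, 305 and 235 (AP.1 to AP.4). The AP libraries all lay inside the VC range. For Tead3 the log2 fold change was 0.20 (SE 0.24, limma adjusted p = 0.603), and it lay between 0.057 and 0.39 with a library left out. Within libraries the log2 ratio of Tead1 to Tead3 was 0.39 ± 0.30 (VC) against 0.46 ± 0.42 (AP; SD, n = 4 each; exact permutation test, p = 0.8).

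The other Tead genes belong to a list of 10 effectors and cofactors, of which Vgll1 was not analysed here and 9 were tested. Within this list limma called none higher and 1 lower, Tead2, while 2 were higher and 3 lower at an unadjusted p under 0.05; edgeR also called none higher and 1 lower, and DESeq2 none higher and 2 lower. Beside these counts stand shares of all genes called lower of 4.0% by limma, 4.46% by edgeR and 7.91% by DESeq2, with 17.04% higher and 13.3% lower at an unadjusted p under 0.05. The median log2 fold change of the 9 genes was -0.10, with 4 above 0, and -0.35 with the length trend removed. Tead2 (ENSMUSG00000030796, chromosome 7 from 45215753 to 45233644) had 204, 180.3, 235 and 232 normalized counts (VC.1 to VC.4) against 97.2, 113, 118 and 73.7 (AP.1 to AP.4). Every AP library lay below every VC library, at roughly the same level in the first 3 and lowest in AP.4. Tead2 fell by a log2 fold change of -1.09 (SE 0.21; limma adjusted p = 0.0152), and the adjusted p was under 0.05 in each of the 8 leave-one-out fits, from 0.0195 to 0.0470. Removing the length trend gave -1.15. Scaling by total counts gave -0.23 (adjusted p = 0.481), the exception among 19 alternatives, whose adjusted p otherwise was under 0.05. Tead4, chosen after its values were seen, had 23.7, 32.5, 57.4 and 13.1 normalized counts (VC.1 to VC.4) against 66.0, 50.7, 59.3 and 68.0 (AP.1 to AP.4). Only VC.3 reached into the AP range, and the log2 fold change of 1.10 (SE 0.42) had an adjusted p of 0.107 from limma.

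Because the 4 Tead genes share a role, their shares of the summed Tead level per kb were compared, also after the values were seen. Tead2 made up 35.7%, 38.8%, 32.7% and 47.5% of the sum (VC.1 to VC.4) against 20.7%, 19.3%, 19.96% and 15.6% (AP.1 to AP.4). The share was lower in all 4 AP libraries than in any VC library, with means of 38.7% ± 6.38 and 18.9% ± 2.27 (SD, n = 4 each), which restates the fall of Tead2 above beside a similar sum, so no p-value is given. Tead4 made up 6.02% ± 2.72 for VC and 13.03% ± 3.19 for AP, again without overlap (SD, n = 4 each). Tead3 held 38.04% ± 5.05 and 46.0% ± 5.14, and Tead1 17.2% ± 1.91 and 22.1% ± 4.28 (SD, n = 4 each), with overlapping groups. Without division by length the differences in share, in percentage points, were -15.7 in place of -19.8 for Tead2, 4.22 in place of 7.00 for Tead4, 4.02 in place of 7.93 for Tead3 and 7.46 in place of 4.85 for Tead1. The sum of the 4 genes was 165 ± 33.5 normalized counts per kb (VC) against 156 ± 20.02 (AP; SD, n = 4 each; exact permutation test, p = 0.714). In whole tissue, fewer cells of a type and less RNA per cell cannot be told apart, for Tead2 or for any gene below.

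**Figure D2:**
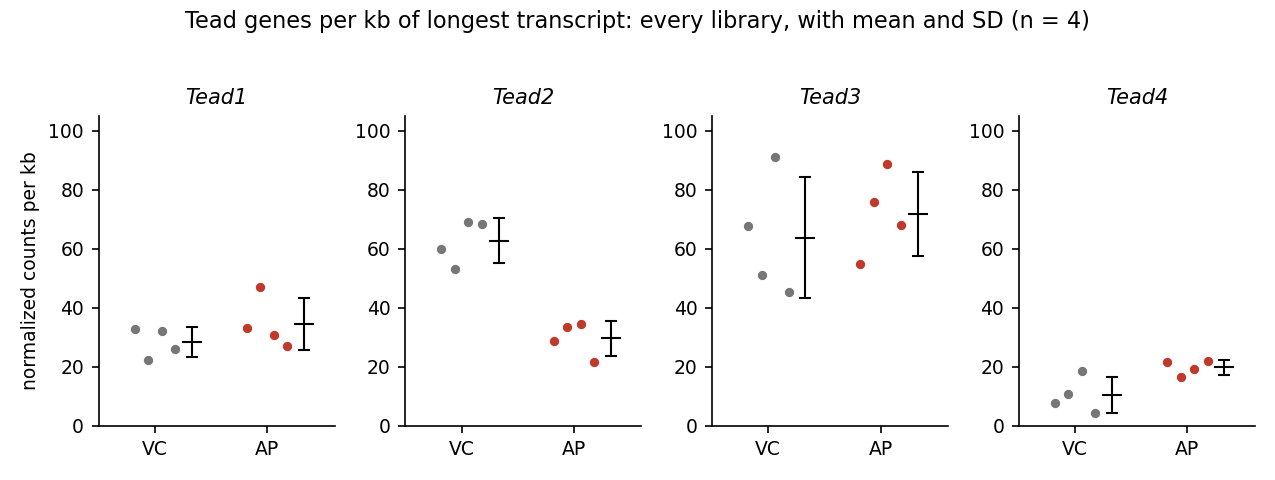
Normalized counts per kb of longest transcript for Tead1 to Tead4 in each library, on 1 common axis, with VC libraries in grey, AP libraries in red and the mean with its SD (n = 4). The Tead2 points of the AP group lie below all those of the VC group, and the Tead1 and Tead3 points overlap.

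The kinases Lats1 and Lats2 differed from each other in how their libraries were arranged. Lats1 (ENSMUSG00000040021, chromosome 10 from 7681214 to 7716460) had 209, 253, 261 and 229 normalized counts (VC.1 to VC.4) against 304, 347, 408 and 344 (AP.1 to AP.4). No AP library was as low as any VC library, and the spread within each group was small. The log2 fold change of Lats1 was 0.56 (SE 0.16, 95% interval from 0.20 to 0.91), with an unadjusted p of 0.00523 and an adjusted p of 0.0503 from limma, just above the threshold. Its adjusted p was under 0.05 in 5 of 19 alternatives, DESeq2 (0.0155), a pseudocount of 5 (0.0490), the stricter filter (0.0477), total counts (0.00107) and the fit without AP.1 (0.0466). After removal of the length trend the log2 fold change was 0.15 (adjusted p = 0.536), the highest adjusted p of the 19. Lats2 (ENSMUSG00000021959, chromosome 14 from 57689662 to 57758388), itself also a Yap target gene, had 251, 82.8, 225 and 202 normalized counts (VC.1 to VC.4) against 173, 245, 123 and 115 (AP.1 to AP.4). VC.2 was far below the other VC libraries, AP.2 was the highest AP library, and the groups overlapped over most of their range. For Lats2 the log2 fold change was -0.17 (SE 0.36, limma adjusted p = 0.787), -0.52 without VC.2 and 0.0060 without VC.1. These values are uncertain, because 2955 of the 6971 exonic bases of Lats2 (42.4%) are shared with Gm49361 on the same strand. The log2 ratio of Lats1 to Lats2 was 0.43 ± 0.81 (VC) against 1.15 ± 0.59 (AP; SD, n = 4 each; exact permutation test, p = 0.2). This difference of 0.72 lay between 0.49 and 1.11 with a library left out.

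In the kinase core of 7 genes, which adds the Mst kinases Stk3 and Stk4, the adaptor Sav1 and the Lats co-activators Mob1a and Mob1b, limma called none in either direction. At an unadjusted p under 0.05, 4 were higher and 1 was lower; edgeR called none, and DESeq2 called 1 higher and 1 lower. For all genes the shares were 17.04% higher and 13.3% lower at that unadjusted p, and 9.46% higher and 7.91% lower by DESeq2. The most abundant, Mob1a, had 776 ± 147 normalized counts (VC) against 1005 ± 140 (AP; SD, n = 4 each), with overlapping groups and an adjusted p of 0.165 from limma. The median log2 fold change of the core was 0.38, and -0.05 with the length trend removed.

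Nf2 (ENSMUSG00000009073, chromosome 11 from 4765845 to 4849536) encodes merlin, a membrane-associated protein that activates Lats kinases. It had 462, 723, 568 and 769 normalized counts (VC.1 to VC.4) against 651, 669, 742 and 784 (AP.1 to AP.4). The AP libraries lay close together, in the upper part of a wider VC range or, for AP.4, just above it. For Nf2 the log2 fold change was 0.20 (SE 0.18, limma adjusted p = 0.482), 0.06 without VC.1 and -4.6e-05 with the length trend removed. Of the 12 upstream regulators, Nf2 among them, limma called 1 higher, Fat1, and none lower; at an unadjusted p under 0.05, 3 were higher and none lower. By edgeR 1 was higher and by DESeq2 2, and neither called one lower. Of all genes, 6.33% were called higher by limma, 6.28% by edgeR and 9.46% by DESeq2, and 17.04% were higher at an unadjusted p under 0.05, so the 1 limma call was near the background. Fat1 (ENSMUSG00000070047, chromosome 8 from 44935447 to 45052257), an atypical cadherin of the cell surface, had 455, 519, 612 and 285 normalized counts (VC.1 to VC.4) against 676, 1118, 979.6 and 750 (AP.1 to AP.4). All AP libraries lay above the highest VC library, and Fat1 rose by a log2 fold change of 0.94 (SE 0.24; limma adjusted p = 0.0352). After removal of the length trend it was at 0.36 (adjusted p = 0.214), its longest transcript having 14814 nt. With a library left out its log2 fold change lay between 0.72 and 1.08, and the adjusted p rose to 0.0697 without VC.1, 0.0581 without VC.4, 0.0978 without AP.2, 0.0699 without AP.4 and 0.107 without AP.3. Among upstream genes the most abundant, the kinase gene Map4k4, had 1746 ± 195 normalized counts (VC) against 1400 ± 179 (AP; SD, n = 4 each; limma adjusted p = 0.183). The median of the 12 genes was 0.34, and 0.05 with the length trend removed.

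Amotl2 encodes an angiomotin family scaffold that binds Yap1 at cell junctions, and it is also listed among Yap target genes. Amotl2 (ENSMUSG00000032531, chromosome 9 from 102716672 to 102733418) had 366, 477, 315 and 317 normalized counts (VC.1 to VC.4) against 589, 602, 636 and 496 (AP.1 to AP.4). Every AP library was higher than every VC library, with the smallest gap between VC.2 and AP.4. Amotl2 rose by a log2 fold change of 0.67 (SE 0.17, 95% interval from 0.29 to 1.05; limma adjusted p = 0.0346), from a mean of 369 ± 76.0 to 581 ± 59.8 normalized counts (SD, n = 4 each). Its adjusted p was under 0.05 in 11 of 19 alternatives, in a range from 6.6e-04 to 0.113, and of the 8 leave-one-out fits just 1, without VC.2, kept it there (0.0217). The log2 fold change stayed between 0.60 and 0.80 in these 8 fits, and the adjusted p was 0.0649 without VC.1, 0.0634 without VC.3, 0.0659 without VC.4, 0.0524 without AP.1, 0.0892 without AP.2, 0.0614 without AP.4 and 0.113 without AP.3. With the length trend removed the log2 fold change was 0.49 (adjusted p = 0.0996).

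Ajuba (ENSMUSG00000022178, chromosome 14 from 54567472 to 54577558) encodes a LIM-domain scaffold that binds and restrains Lats kinases. It had 335, 393, 558 and 201 normalized counts (VC.1 to VC.4) against 422, 656, 782 and 674 (AP.1 to AP.4). AP.2, AP.3 and AP.4 lay above every VC library, while AP.1 lay between VC.2 and VC.3. For Ajuba the log2 fold change was 0.82 (SE 0.29, 95% interval from 0.19 to 1.46), with an unadjusted p of 0.0155 and an adjusted p of 0.0854 from limma. In 3 of 19 alternatives the adjusted p was under 0.05, total counts (0.00308), without VC.3 (0.0423) and without AP.1 (0.0468), and it was 0.215 without AP.3. Its log2 fold change was 0.76 after removal of the length trend.

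Among the 7 scaffolds, 2 were called higher by limma, Amotl2 and Ptpn14, and none lower; at an unadjusted p under 0.05, 4 were higher and 1 was lower. Of the same 7 genes, edgeR called 2 higher and DESeq2 3, and neither called one lower. These compare with 6.33% of all genes higher by limma, 17.04% at an unadjusted p under 0.05, 6.28% by edgeR and 9.46% by DESeq2. The median of the 7 was 0.47, and 0.26 with the length trend removed. Ptpn14 (ENSMUSG00000026604, chromosome 1 from 189728268 to 189876695), a tyrosine phosphatase that binds Yap1, had 271, 334, 451 and 276 normalized counts (VC.1 to VC.4) against 618, 913, 885 and 679 (AP.1 to AP.4). Even the lowest AP library was above the highest VC library. Ptpn14 rose by a log2 fold change of 1.23 (SE 0.20; limma adjusted p = 0.00901), and its adjusted p was under 0.05 in all 19 alternatives, from 2.0e-05 to 0.0385, with 0.71 as the log2 fold change when the length trend was removed. The most abundant scaffold, the angiomotin family gene Amotl1, had 913 ± 181 normalized counts (VC) against 970.4 ± 78.1 (AP; SD, n = 4 each; limma adjusted p = 0.704).

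Ankrd1 (ENSMUSG00000024803, chromosome 19 from 36111961 to 36120099) encodes a nuclear ankyrin repeat protein and was close to the limit of detection. It had 8, 0, 9 and 4 reads (VC.1 to VC.4) against 20, 13, 8 and 0 (AP.1 to AP.4). This corresponds to 14.6, 0, 12.3 and 7.50 normalized counts (VC.1 to VC.4) against 14.5, 7.01, 3.99 and 0 (AP.1 to AP.4). Each group had 1 library without a read, and the ranges were nearly the same. The log2 fold change of Ankrd1 was -0.38 (SE 1.06, 95% interval from -2.69 to 1.94, limma adjusted p = 0.839), an interval wide enough to hold a large change in either direction. Its sign depended on single libraries, with -1.27 without VC.2 and 0.40 without AP.4.

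Ankrd1, Amotl2 and Lats2 belong to a list of 22 Yap target genes, which also shares Ptpn14 with the scaffolds. Of these, 21 passed the filter and Foxf2 did not. By limma 5 were called higher, Amotl2, Ptpn14, Myof, Ccn1 and Crim1, and none lower, while 9 were higher and none lower at an unadjusted p under 0.05; edgeR called 5 higher and DESeq2 8, and neither called one lower. Over all genes the shares called higher were 6.33% by limma, 17.04% at an unadjusted p under 0.05, 6.28% by edgeR and 9.46% by DESeq2. The median log2 fold change of the 21 genes was 0.57, with 17 above 0, beside 0.06 over all genes tested. With the length trend removed the median was 0.42, with 14 above 0, 3 called higher and 1 lower, beside 3.63% of all genes higher and 3.23% lower in that fit. Ccn1 (ENSMUSG00000028195, chromosome 3 from 145646976 to 145649981), a secreted matricellular protein also known as Cyr61, had 236, 93.1, 246 and 210 normalized counts (VC.1 to VC.4) against 923, 467, 532 and 281 (AP.1 to AP.4). All AP libraries lay above the VC libraries, AP.1 highest and AP.4 closest to them. Ccn1 rose by a log2 fold change of 1.45 (SE 0.37; limma adjusted p = 0.0344), and 1.58 with the length trend removed. With a library left out it lay between 1.13 and 1.73, and its adjusted p was 0.0546 without VC.1, 0.0562 without VC.2, 0.0544 without VC.4, 0.0539 without AP.1, 0.0745 without AP.2 and 0.0956 without AP.3.

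Crim1 (ENSMUSG00000024074, chromosome 17 from 78200248 to 78376592), a transmembrane protein that binds bone morphogenetic proteins, had 287, 188, 209 and 116 normalized counts (VC.1 to VC.4) against 395, 749, 486 and 446 (AP.1 to AP.4). The AP libraries were all above the highest VC library, with AP.2 the highest. Crim1 rose by a log2 fold change of 1.40 (SE 0.28; limma adjusted p = 0.0166), and only the fit without AP.3 took its adjusted p over 0.05, to 0.0502. Myof (ENSMUSG00000048612, chromosome 19 from 37899036 to 38043577), a membrane repair protein of the ferlin family, had 493, 365, 313 and 531 normalized counts (VC.1 to VC.4) against 608, 737, 718 and 770 (AP.1 to AP.4). Again no AP library fell into the VC range. Myof rose by a log2 fold change of 0.76 (SE 0.19; limma adjusted p = 0.0312), and was at 0.36 (adjusted p = 0.311) with the length trend removed. Leaving out a library kept its log2 fold change between 0.62 and 0.88, while the call was lost without VC.2 (0.0585), VC.3 (0.0538), AP.2 (0.0804), AP.3 (0.0918) or AP.4 (0.0870). Ccn2, the close relative of Ccn1 also called Ctgf, was chosen after its values were seen, with 184, 160, 384 and 141 normalized counts (VC.1 to VC.4) against 400, 421, 149 and 223 (AP.1 to AP.4). Its groups overlapped, and the log2 fold change was 0.45 (SE 0.38, limma adjusted p = 0.446). The most abundant gene of the list, Ccdc80, was at 1593 ± 643 (VC) against 1669 ± 656 (AP; SD, n = 4 each; limma adjusted p = 0.904).

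Over all 5 lists, which hold 55 genes with repeats removed, 53 were tested, and limma called 6 higher and 1 lower, beside 6.33% and 4.0% of all genes. Their median log2 fold change was 0.41, with 37 of 53 above 0, beside 0.06 for all genes tested. These genes had longer transcripts than most, with a median of 4697 nt for the longest transcript beside 3171 nt over the tested genes with a length. With the length trend removed the median of the 53 genes was 0.07, beside -0.01 for all genes, and limma called 3 higher and 3 lower, where it called 3.63% of all genes higher and 3.23% lower. With upper-quartile factors the count was again 6 higher and 1 lower, and with total counts 40 higher and none lower, where 54.2% of all genes were called higher and 0.438% lower, the 53 genes having a median of 1.28 on a scale where all genes had 0.90.

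**Figure D3:**
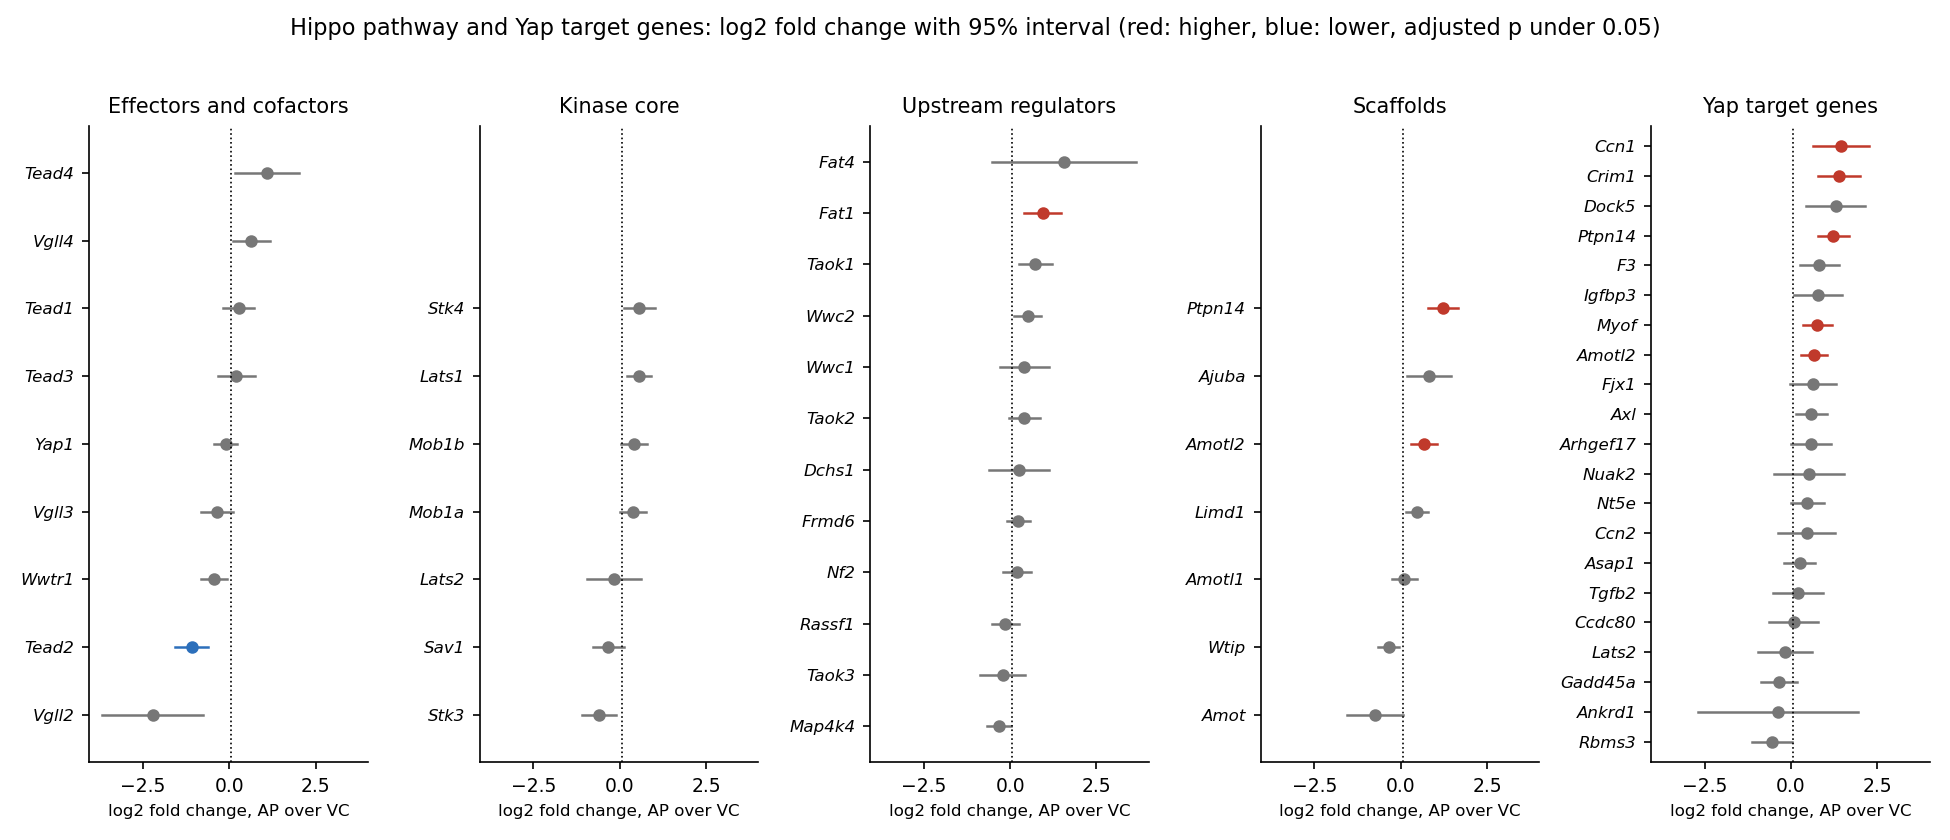
Log2 fold change of AP over VC with its 95% interval for the 53 tested genes, 1 panel per list and 1 line per gene (genes in 2 lists appear in both); red marks genes higher and blue genes lower at an adjusted p under 0.05, and the dotted line is the median of all genes tested, 0.06. Most Yap target genes lie to the right of the line, while Yap1, Wwtr1 and Tead2 lie to its left.

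Promoter windows of 300 bases, from 250 before to 50 after a RefSeq transcription start (GRCm38.p6), were searched for the Tead core motif GGAATG on both strands (CATTCC when read on the other strand), with no other motif searched. Of the 10 genes, 9 had windows and Tead1 was not matched. The motif was in 7 of these 9 genes (77.78%) and in 9 of their 14 windows (64.29%), beside 16.58% of 27025 genes and 14.66% of 32851 windows in the whole table. It was present for Yap1, Wwtr1, Amotl2, Ajuba, Lats2, Tead3 and Ankrd1, and these letters were not in the windows of Lats1 and Nf2. The share is a description of 9 genes chosen by name, and a match is not a bound site. The matches of the co-activators, the called gene Amotl2, its fellow scaffold gene Ajuba and the target Ankrd1 are shown as examples of the genes described above, each 30 bases on the strand of the gene with the motif in capitals.
Yap1: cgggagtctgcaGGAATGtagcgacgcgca
Wwtr1: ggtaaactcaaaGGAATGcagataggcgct
Amotl2: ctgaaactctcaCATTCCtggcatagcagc
Ajuba distal: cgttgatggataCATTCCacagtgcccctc
Ajuba proximal: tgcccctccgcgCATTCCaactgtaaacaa
Ankrd1 distal: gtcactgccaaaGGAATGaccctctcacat
Ankrd1 proximal: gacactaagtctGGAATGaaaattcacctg
They lie at chr9:8004720-8004749 (minus strand), chr3:57576029-57576058 (minus strand) and chr9:102717727-102717756 (plus strand) for Yap1, Wwtr1 and Amotl2. Those of Ajuba lie at chr14:54577830-54577859 and chr14:54577808-54577837, and those of Ankrd1 at chr19:36120037-36120066 and chr19:36119950-36119979, all on the minus strand. The forward letters stand on the gene's strand in Yap1, Wwtr1 and Ankrd1, and on the other strand in Amotl2 and Ajuba.

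The genes whose pattern over the 8 libraries was nearest to that of Yap1, among 11257 genes with a mean of at least 50 normalized counts, were U2af2, Metap1 and Grsf1. Their root-mean-square differences from Yap1 on the centred log2 scale were 0.0572, 0.0697 and 0.0802, where Yap1 itself spread by 0.153. For Ankrd1 the nearest were Ppfia2, Gjc1 and Peg3, at 0.965, 0.975 and 0.984, where Ankrd1 spread by 1.54. The nearest genes of Ankrd1 were thus far from its pattern, which rests on few reads.

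Markers of cell types that the tissue can hold differed between the groups as well. So did a list of immediate early genes, which marks no cell type. The suprabasal keratinocyte list of 8 genes, led by Krt10, summed to 4924, 11730, 7769 and 5091 normalized counts (VC.1 to VC.4) against 35830, 37350, 97350 and 147300 (AP.1 to AP.4), with 7 genes called higher. The basal keratinocyte list of 6 genes, led by Krt14, summed to 24120, 78090, 46700 and 21900 (VC.1 to VC.4) against 49170, 52380, 94070 and 138200 (AP.1 to AP.4), with 3 called higher. Suprabasal markers were thus above 0 in every library although the tissue was labelled as having no interfollicular epidermis, and higher in each AP library than in any VC library. The smooth muscle list of 5 genes, led by Acta2, summed to 1079, 1130, 1584 and 1504 (VC.1 to VC.4) against 3253, 5351, 2022 and 3038 (AP.1 to AP.4), with 3 called higher. The endothelium list of 5 genes, led by Vwf, summed to 935, 918, 1998 and 1629 (VC.1 to VC.4) against 2842, 7080, 2419 and 2732 (AP.1 to AP.4), with 2 called higher. The immediate early list of 7 genes, led by Junb, summed to 1657, 1750, 2586 and 1740 (VC.1 to VC.4) against 8543, 6209, 7642 and 6061 (AP.1 to AP.4), with all 7 called higher. For these 3 lists too, each AP library exceeded each VC library. The counts called higher are those of limma, beside 6.33% of all genes. By edgeR 7 suprabasal, 2 basal, 3 smooth muscle, 2 endothelium and 7 immediate early genes were higher, beside 6.28% of all genes. DESeq2 called 8, 3, 4, 5 and 7 in that order, beside 9.46%. With the length trend removed limma called 7, 1, 3, 1 and 7, beside 3.63%. None of these fits called a gene of these lists lower.

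The skeletal muscle list of 10 genes, led by Acta1, summed to 45720, 70850, 37300 and 35830 (VC.1 to VC.4) against 70650, 9023, 5285 and 11320 (AP.1 to AP.4), with 1 gene called lower by limma, Tnnc2. AP.1 thus stood with the VC libraries, and the other AP libraries lay well below them. At an unadjusted p under 0.05, 8 of the 10 genes were lower and none higher, and edgeR and DESeq2 called none. Over all genes, 13.3% were lower and 17.04% higher at that unadjusted p. Of all genes limma called 4.0% lower, edgeR 4.46% and DESeq2 7.91%. The adjusted p of Tnnc2 was 0.0497 by limma, and it was under 0.05 in 5 of 19 alternatives, in a range from 0.00223 to 0.164. Its log2 fold change lay between -2.75 and -1.56 with a library left out, and the call was lost without VC.1 (0.0960), VC.2 (0.0955), VC.3 (0.0815), VC.4 (0.0580), AP.2 (0.117), AP.3 (0.131) or AP.4 (0.113). The fibroblast list of 6 genes, led by Col1a1, summed to 113500, 76170, 78170 and 214400 (VC.1 to VC.4) against 248500, 185700, 133500 and 94660 (AP.1 to AP.4). The hair follicle epithelium list of 5 genes, led by Krt17, summed to 11130, 10690, 12770 and 6336 (VC.1 to VC.4) against 11190, 8700, 19290 and 16340 (AP.1 to AP.4). The leukocyte list of 5 genes, led by Csf1r, summed to 2132, 1281, 1284 and 3356 (VC.1 to VC.4) against 1717, 1508, 1207 and 1186 (AP.1 to AP.4). In the fibroblast, hair follicle and leukocyte lists the groups overlapped and limma called no gene; at an unadjusted p under 0.05, 1 fibroblast gene was higher, and 1 leukocyte gene was higher and 2 were lower. By edgeR none of the 3 lists had a call, and by DESeq2 1 leukocyte gene was lower. Beside these counts, 17.04% of all genes were higher and 13.3% lower at that unadjusted p, and DESeq2 called 7.91% lower. The summed level of the suprabasal, smooth muscle, endothelium and immediate early lists differed with an exact permutation p of 0.0286 (adjusted 0.0643 over 9 lists), and that of the others with a p from 0.114 to 0.286. No marker gene was at 0 in every library, and what the marker levels contribute to the differences in Amotl2, Lats1, Tead2 or any other gene above was not tested.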

How the data were processed

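The signal values were deposited by the authors as read counts per gene divided by 1 size factor per library. The submitters' processing notes name mm10, STAR, HTSeq and DESeq2, while the study's methods name featureCounts for the counting. The table also holds the authors' own comparison (mean, log2 fold change, error, statistic and p-values), which was not used. All 150160 values were whole multiples of 1 read to within 0.1, so reads were recovered. limma 3.58.1 in R 4.3.3, with an intensity trend, was fitted to log2(value + 1) of genes that reached 3 normalized counts in 4 or more of the 8 libraries. Alternatives were edgeR 4.0.16 and DESeq2 1.42.0 on the recovered reads, pseudocounts of 0.5 and 5, and no filter or one of 10. Others were upper-quartile, total-count and non-mitochondrial total scaling, and reads drawn down until libraries held about equal numbers of non-mitochondrial reads. A loess trend (span 0.3) on transcript length was also removed, and each library was left out. The study's thresholds (p under 0.01, fold change over 1.5) were applied to the limma fit. The study itself applied them to DESeq2 p-values, with a minimum count of 3. Single values were compared by an exact permutation test over 70 assignments with SciPy 1.17.1. The fitting steps were tested on simulated data.

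The named genes are the 10 members, every called gene and the most abundant gene of each pathway list, the 3 genes most like Yap1 and Ankrd1, and the marker lists by their sums; others are said to be chosen after their values were seen. The members and lists were chosen with earlier results of these data known. Positions and lengths are from GENCODE M21, which holds 18766 of the 18770 identifiers, and promoters from RefSeq. The shares of the Tead genes and the marker sums without each library were added after seeing the data. Proteins were not analysed here.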

Additional observations from a re-analysis of the deposited data

Results flagged for a closer look

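Of 66 groups of 4 libraries examined, 4 held a library far from the other 3 (by Dixon's ratio of gap to range), where chance gives about 1 in 20. Wwtr1 was at 769 normalized counts in AP.2, while the other AP libraries lay between 498 and 537. The summed skeletal muscle markers were at 70650 normalized counts in AP.1, beside 5285 to 11320 in the other AP libraries. The summed endothelium markers reached 7080 normalized counts in AP.2, beside 2419 to 2842 in the other AP libraries. In VC.3 the summed immediate early genes were at 2586 normalized counts, beside 1657 to 1750 in the other VC libraries.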

How the results depend on the processing

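The number of the 10 genes called was 1 in 9 of 20 alternatives. It was 2 with DESeq2, with a pseudocount of 5 and with the filter at 10, 7 with total counts and 0 with the length trend removed, and from 0 to 2 with a library left out. Of the genes in the 5 pathway lists, 7 were called, 15 with DESeq2, 40 with total counts and from 2 to 11 with a library left out. The study's p and fold thresholds, applied to limma in place of DESeq2, gave 11 (9 higher and 2 lower). The same thresholds gave 2169 of all 15964 genes tested (1319 higher and 850 lower). In 12 of the 20 alternatives the count of pathway genes stayed within 1.5 times. Over all genes tested 1650 were called, 3061 with DESeq2, 8727 with total counts, 1096 with the length trend removed and from 303 to 1899 with a library left out. Of these 61.3% were higher, 99.2% with total counts and 49.9% with upper-quartile factors.

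Log2 fold changes turned to 0.77 for Yap1, 0.43 for Wwtr1, 0.70 for Lats2 and 0.25 for Ankrd1 with total counts, where the median of all genes was 0.90, a shift made by scaling to totals that hold the mitochondrial reads. With the length trend removed they turned to -0.23 for Tead1 and -4.6e-05 for Nf2, and the difference in the log2 ratio of Tead1 to Tead3 to -0.36. Ankrd1 was at 0.023 with non-mitochondrial reads drawn down to equal numbers. With a library left out, Lats2 ranged from -0.52 to 0.0060, Ankrd1 from -1.27 to 0.40 and the Tead1 to Tead3 difference from -0.057 to 0.22. Beyond the constructions named, the cause was not tested. No paired analysis was possible because the sample labels share no replicate numbers and the columns could not be tied to them. Depth limits Ankrd1 most, with at most 20 reads in a library.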
